A study of Mus musculus with 8 samples.

Results

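The levels of 9 enzyme genes of activated macrophage metabolism were followed: Acod1, Ass1, Gch1, Nos2, Arg1, Arg2, Ptgs2, Ptges and Ch25h. They are 9 of the 53715 genes in the deposited expression table, and all 9 were found by symbol. They were chosen by their role and with their RPKM in the transgene groups of these libraries already known. Their values, limma calls and counting intervals are therefore given as a description and not as tests of a question set beforehand. The cells were mouse macrophages without endogenous Sting, the gene of the DNA-pathway adaptor that binds cyclic dinucleotides. They stably expressed mouse STING whose C-terminal tail was replaced by the zebrafish tail (zfCTT), intact mouse STING (mSTING), mouse STING without the tail (dCTT), or no STING transgene (no transgene, titled with the name of an MSCV retroviral vector). Every group received 10-carboxymethyl-9-acridanone (CMA), a small molecule that activates mouse STING, at 500 µg/ml for 4 h, and each group has 2 libraries of polyadenylated RNA. No unstimulated library is among them, so a level in the no transgene group is a level under CMA and not a resting level. The labels do not say whether the lines are clones or pools, nor whether the 2 libraries of a group come from separate cultures, so the spread between them may be technical.

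The enzymes belong to branches of metabolism that macrophages change on activation. Acod1 (also called Irg1) decarboxylates cis-aconitate, an intermediate of the citrate cycle, to itaconate, an abundant metabolite of activated mouse macrophages. Nos2, the inducible nitric oxide synthase, makes nitric oxide and citrulline from arginine. Ass1, argininosuccinate synthase, begins the return of citrulline to arginine, and Gch1, GTP cyclohydrolase, begins the synthesis of tetrahydrobiopterin, a cofactor of nitric oxide synthases. Arg1 and Arg2, the cytosolic and the mitochondrial arginase, compete for the same arginine and give ornithine and urea. Ptgs2 (cyclooxygenase-2) and Ptges (the membrane-bound prostaglandin E synthase) act in sequence to make prostaglandin E2 from arachidonic acid. Ch25h makes 25-hydroxycholesterol, an oxysterol. Many of these genes are known targets of NF-κB, of interferon-activated factors, or of both.

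Levels are in RPKM, read counts divided by gene length and library depth, as deposited by the authors. Depth recovered from the steps of the values was 20.1 and 34.8 M reads in the zfCTT libraries and 27.7 to 171 M reads in the other 6, so a low level is least precise in zfCTT replicate 1 and next in no transgene replicate 1. Of 8 macrophage markers, 7 were at 1 RPKM or more in every library (Mertk was not), and no marker of 8 other cell types passed 0.328 RPKM, the level of the dendritic cell marker Zbtb46 in 1 zfCTT library. Ly6g, Col1a2, Dcn, Cd3e, Ncr1, Gzma, Cpa3, Mcpt4 and Tpsb2 were at 0 in every library. The summed macrophage markers ranged from 625 to 806 RPKM in zfCTT, 539 to 767 RPKM in mSTING, 839 to 891 RPKM in dCTT and 965 to 1144 RPKM without a transgene. Cd68, Lyz2, Cd14 and Csf1r made up most of the sum. Lyz2 was at 101 and 146 RPKM in zfCTT and 486 and 180 RPKM without a transgene. Fcgr1 went the other way, at 34.0 and 21.6 RPKM in zfCTT and 9.83 and 5.38 RPKM without a transgene. Their part in the results was not tested, and in these bulk samples fewer cells of a type and less RNA per cell cannot be told apart. Tmem173, the symbol of the deleted gene in the table, was at 14.2 and 20.6 RPKM in zfCTT, 10.6 and 22.2 in mSTING, 22.7 and 14.98 in dCTT, and 3.23 and 2.42 without a transgene. The libraries labelled with a transgene were therefore all above those labelled with none. On principal components of all tested genes, zfCTT replicate 1 lay farthest out along the first. Replicate 1 of the no transgene group and replicate 1 of dCTT stood apart from the other libraries along the second component, and the counts of calls and of separated groups are given with and without them.

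**Figure D1:**
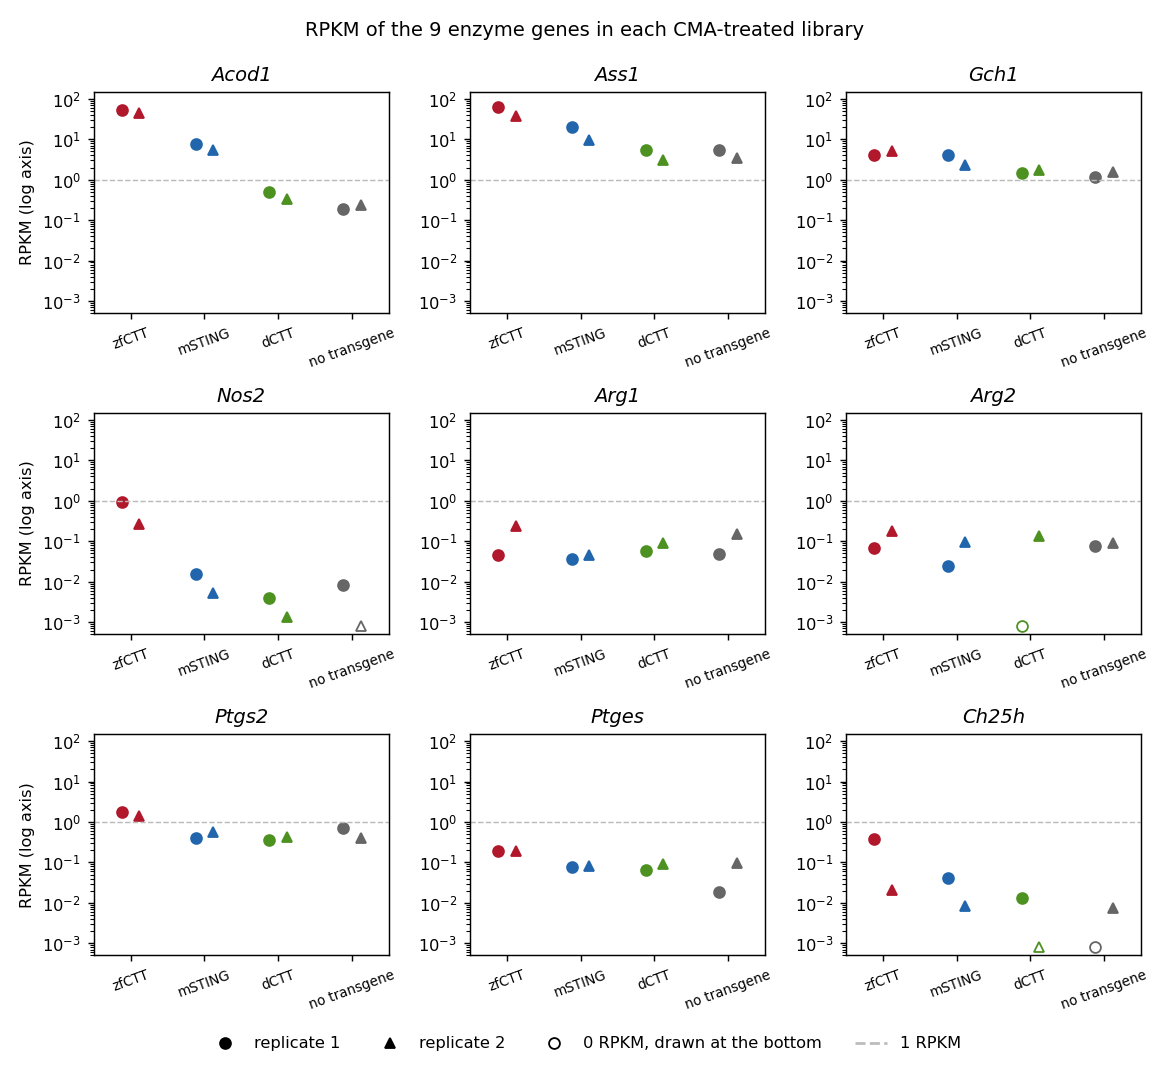
Level of each enzyme gene in each library on a log axis, in RPKM, with 1 point per library (circle replicate 1, triangle replicate 2), open symbols at the bottom for 0 RPKM and a dashed line at 1 RPKM. Acod1 and Ass1 reached 37.8 to 62.7 RPKM in zfCTT, Gch1 and Ptgs2 lay between 0.361 and 5.09 RPKM in all libraries, and the other 5 genes stayed below 1 RPKM throughout.

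Ass1 and Acod1 were the highest of the 9 in zfCTT, and their ranges overlapped. There Ass1 averaged 50.2 ± 17.6 RPKM and Acod1 48.9 ± 7.65 RPKM (SD, n = 2 libraries), which put them at places 1825 and 1865 of 53715 genes by mean RPKM. Gch1 at 4.54 ± 0.773 RPKM and Ptgs2 at 1.59 ± 0.211 RPKM came next, and Nos2, Ch25h, Ptges, Arg1 and Arg2 had means of 0.614, 0.195, 0.190, 0.145 and 0.125 RPKM, a run in which each overlaps the next in its library range. Without a transgene the order was another one, with Ass1 first at 4.32 ± 1.37 RPKM, Gch1 at 1.35 ± 0.239, Ptgs2 at 0.549 ± 0.203 and Acod1 behind them at 0.215 ± 0.0317 RPKM (SD, n = 2). The plot of levels by library shows these orders side by side.

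For the tests across all genes, a gene needed at least 1 RPKM in at least 2 of the 8 libraries, which 13475 genes did. Of the 9 enzyme genes 4 did so: Acod1, Ass1, Gch1 and Ptgs2. Ptgs2 did so through the zfCTT libraries alone, and Acod1 through those of zfCTT and mSTING. A gene let in only by the group where it is high had to differ, so nothing is read from counts over these 4. Nos2, Arg1, Arg2, Ptges and Ch25h stayed under that level and are described by recovered reads. Differences are given as the group named first minus the other on the log2(RPKM + 1) scale with the standard error of the limma fit, a scale that understates the change of low genes.

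Acod1, the source of itaconate, was highest in zfCTT, intermediate in mSTING and low in the other groups. Its level was 54.3 and 43.5 RPKM in zfCTT (2857 and 3970 reads), 7.48 and 5.47 RPKM in mSTING (1729 and 1265 reads), 0.486 and 0.338 RPKM in dCTT (71 and 152 reads), and 0.192 and 0.237 RPKM without a transgene (14 and 63 reads). No group overlapped another: both zfCTT libraries were above both of mSTING, those above both of dCTT, and those above both without a transgene. The ratio of mean RPKM was 228 for zfCTT over no transgene, 119 for zfCTT over dCTT, 30.1 for mSTING over no transgene and 7.55 for zfCTT over mSTING. Taking libraries singly, the ratio of zfCTT to mSTING lay between 5.82 and 9.93. The dCTT and no transgene groups were 1.92-fold apart in mean RPKM, on 223 and 77 reads, a difference that does not overlap between libraries but whose log2 value, 0.22 ± 0.20 (SE), is about the size of its error.

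On the log2(RPKM + 1) scale Acod1 differed by 5.35 between zfCTT and no transgene, 5.14 between zfCTT and dCTT, 2.74 between zfCTT and mSTING and 2.61 between mSTING and no transgene, each ± 0.20 (SE, n = 2 libraries a group). The pseudocount of 1 compresses the groups that lie below 1 RPKM: with 0.1 in its place the value for zfCTT over no transgene was 7.28 and that for mSTING over no transgene 4.37. Ordered by this difference among the 13475 genes, Acod1 stood at place 11 for zfCTT over no transgene, 12 for zfCTT over dCTT, 22 for zfCTT over mSTING and 21 for mSTING over no transgene. For dCTT over no transgene it stood at place 1287. These contrasts share groups, so the places are no independent observations.

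Acod1 (ENSMUSG00000022126) lies on the plus strand at chr14:103046977-103056573 of GRCm38, has 5 exon blocks in the GENCODE annotation and shares none of them with another gene. Of the 4 genes that passed the level filter, Acod1, Ass1 and Gch1 were higher in both mSTING libraries than in both without a transgene, and Ptgs2 was not. The upstream sequences of these 4 genes are shown, and a link between sequence and level was not tested. Each is the 250 bases before the RefSeq start on GRCm38.p6, read 5′ to 3′ on the gene's own strand, with motif matches in capitals: Acod1 from chr14:103046762-103047011 (plus), Ass1 from chr2:31470020-31470269 (plus), Gch1 from chr14:47189414-47189663 (minus) and Ptgs2 from chr1:150099781-150100030 (plus). The GENCODE genes Acod1 and Ass1 begin inside these windows, ahead of the RefSeq start.
Acod1: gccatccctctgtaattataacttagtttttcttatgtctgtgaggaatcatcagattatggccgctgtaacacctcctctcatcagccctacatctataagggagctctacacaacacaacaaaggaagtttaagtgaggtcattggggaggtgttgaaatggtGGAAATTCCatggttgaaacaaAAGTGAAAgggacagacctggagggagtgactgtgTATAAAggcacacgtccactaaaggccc
Ass1: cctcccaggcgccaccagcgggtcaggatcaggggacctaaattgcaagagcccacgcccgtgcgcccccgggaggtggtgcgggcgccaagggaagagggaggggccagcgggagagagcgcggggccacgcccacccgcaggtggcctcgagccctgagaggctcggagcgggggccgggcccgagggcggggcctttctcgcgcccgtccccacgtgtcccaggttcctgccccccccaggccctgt
Gch1: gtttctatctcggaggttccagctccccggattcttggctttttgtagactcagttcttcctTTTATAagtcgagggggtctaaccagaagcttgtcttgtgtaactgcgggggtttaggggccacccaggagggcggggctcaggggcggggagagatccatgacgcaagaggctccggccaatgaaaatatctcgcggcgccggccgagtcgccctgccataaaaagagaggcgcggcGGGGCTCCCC
Ptgs2: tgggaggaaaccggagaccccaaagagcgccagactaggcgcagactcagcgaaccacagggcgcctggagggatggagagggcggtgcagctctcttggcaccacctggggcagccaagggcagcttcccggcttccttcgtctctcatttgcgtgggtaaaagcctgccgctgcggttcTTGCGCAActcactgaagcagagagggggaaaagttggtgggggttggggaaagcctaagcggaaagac

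RefSeq promoter entries of 250 bases before and 50 after the start were found for 6 of the 9 genes, namely these 4, Ptges and Ch25h. The capitals in Acod1 are, from 5′ to 3′, the short κB form GGAAATTCC at 85 to 77 bases before the start, the interferon regulatory factor core AAGTGAAA at 63 to 56 and the TATA box TATAAA at 28 to 23. In Gch1 they are a TATA box on the opposite strand at 188 to 183 and GGGGCTCCCC, a match to the κB consensus, in the last 10 bases before the start. In Ptgs2 they are the C/EBP motif TTGCGCAA at 69 to 62. Ch25h, not printed, holds the cyclic AMP response element TGACGTCA at 61 to 54 and a TATA box at 151 to 146, and Ass1 and Ptges hold none of the motifs searched.

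Both strands of the full 300 bases were searched for the interferon-stimulated response element core (GAAA, any 2 bases, GAAA), AANNGAAA (the interferon regulatory factor core, contained in the previous one), the κB consensus, its short form GGAANTTCC, the interferon gamma activated site TTCNNNGAA, the AP-1 motif TGANTCA, TGACGTCA, TTGCNCAA and TATAAA. Among 32851 RefSeq promoters of this length 3.44%, 23.9%, 8.46%, 0.928%, 8.30%, 7.81%, 1.79%, 2.94% and 13.6% hold them, in that order. The short κB form was added after the Acod1 sequence had been seen, so its low share says nothing about Acod1. A match is a string of letters in this window and not a measured binding site.

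Of the arginine genes among the 9, Ass1 had the highest levels in every library. It was at 62.7 and 37.8 RPKM in zfCTT (3033 and 3172 reads), 19.8 and 9.62 RPKM in mSTING (4204 and 2047 reads), 5.37 and 3.06 RPKM in dCTT, and 5.29 and 3.34 RPKM without a transgene. The zfCTT libraries lay above those of mSTING and these above all dCTT and no transgene libraries, while the last 2 groups overlapped. Within groups, replicate 1 was above replicate 2 in 4 of 4 groups.

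Mean Ass1 RPKM was 11.6-fold higher in zfCTT than without a transgene, 11.9-fold higher than in dCTT and 3.42-fold higher than in mSTING, and it was 3.40-fold higher in mSTING than without a transgene. On the log2(RPKM + 1) scale these are differences of 3.25, 3.29, 1.74 and 1.51, each ± 0.43 (SE, n = 2 a group). The Ass1 error was more than that of Acod1, Gch1 or Ptgs2. The Ass1 gene lies on the plus strand at chr2:31470207-31520672 of GRCm38 in 16 exon blocks, none shared with another gene.

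Nos2, which uses the arginine that Ass1 helps to restore, was low in every library and nearly all its reads lay in zfCTT. It had 85 and 41 reads in zfCTT (0.961 and 0.267 RPKM), 6 and 2 reads in mSTING, 1 and 1 read in dCTT, and 1 and 0 reads without a transgene. All other libraries lay below these 2, although zfCTT replicate 1 has the lowest depth of the 8. The pooled read rate in zfCTT was 50.6 times that in mSTING (95% interval 24.9 to 120), 261 times that in dCTT (70.7 to 2178) and 296 times that without a transgene (52.2 to 11790). These exact conditional intervals cover counting error only and leave out the spread between libraries, which for Nos2 in zfCTT was large, at 0.614 ± 0.491 RPKM (SD, n = 2). With 8 reads in mSTING and 1 without a transgene, the ratio of 5.85 between these groups has an interval of 0.784 to 260 and a difference was not detectable at this depth. Nos2 lies on the plus strand at chr11:78920787-78960254 of GRCm38.

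Gch1, the first enzyme of the cofactor pathway of nitric oxide synthase, had a narrower span. It was at 4.00 and 5.09 RPKM in zfCTT, 4.09 and 2.35 RPKM in mSTING, 1.49 and 1.70 RPKM in dCTT, and 1.18 and 1.52 RPKM without a transgene. The zfCTT and mSTING libraries overlapped, and so did those of dCTT and no transgene, while every library of the first pair of groups was above every library of the second pair. The log2(RPKM + 1) difference was 1.23 for zfCTT over no transgene, 1.09 for zfCTT over dCTT, 0.82 for mSTING over no transgene and 0.42 for zfCTT over mSTING, each ± 0.24 (SE, n = 2 a group). Gch1 lies on the minus strand at chr14:47153895-47189413 of GRCm38.

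The arginases were at low levels in all 4 groups. Arg1 was at 0.045 and 0.245 RPKM in zfCTT (2 and 19 reads), 0.036 and 0.046 RPKM in mSTING (7 and 9 reads), 0.056 and 0.092 RPKM in dCTT (7 and 35 reads), and 0.049 and 0.151 RPKM without a transgene (3 and 34 reads). Arg2 was at 0.070 and 0.181 RPKM in zfCTT (2 and 9 reads), 0.024 and 0.095 RPKM in mSTING (3 and 12 reads), 0 and 0.139 RPKM in dCTT (0 and 34 reads), and 0.076 and 0.090 RPKM without a transgene (3 and 13 reads). In both genes zfCTT overlapped each of the other 3 groups, and replicate 2 was above replicate 1 in 4 of 4 groups. The count of 0 in dCTT replicate 1 allows up to 0.0377 RPKM when 3 reads are taken as the limit of a count of 0, while the exact interval in the plot of reads reaches 3.69 reads.

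The pooled Arg1 read rate in zfCTT was 4.22 times that in mSTING (95% interval 2.098 to 8.65), 2.07 times that in dCTT (1.165 to 3.58) and 1.33 times that without a transgene (0.742 to 2.34), although 19 of its 21 reads lay in zfCTT replicate 2. In mSTING the Arg1 rate was 0.316 times that without a transgene (0.164 to 0.583), with both mSTING libraries below both of the other group. The nearest libraries were hardly apart, mSTING replicate 2 at 0.046 RPKM (9 reads) and no transgene replicate 1 at 0.049 RPKM (3 reads). Of the 37 reads without a transgene, 34 lay in replicate 2. For Arg2 the rate in zfCTT was 2.36 times that in mSTING (0.979 to 5.49), 1.34 times that in dCTT (0.612 to 2.71) and 1.62 times that without a transgene (0.678 to 3.71). All these intervals are for counting error only. Reads assigned to Arg2 are uncertain, since 401 bases of its exons are also exons of Vti1b or Gm48780 on the other strand and the strand setting of the counting is not given in the sources used here. Arg1 lies on the minus strand at chr10:24915221-24927484 and Arg2 on the plus strand at chr12:79130777-79156301 of GRCm38.

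**Figure D2:**
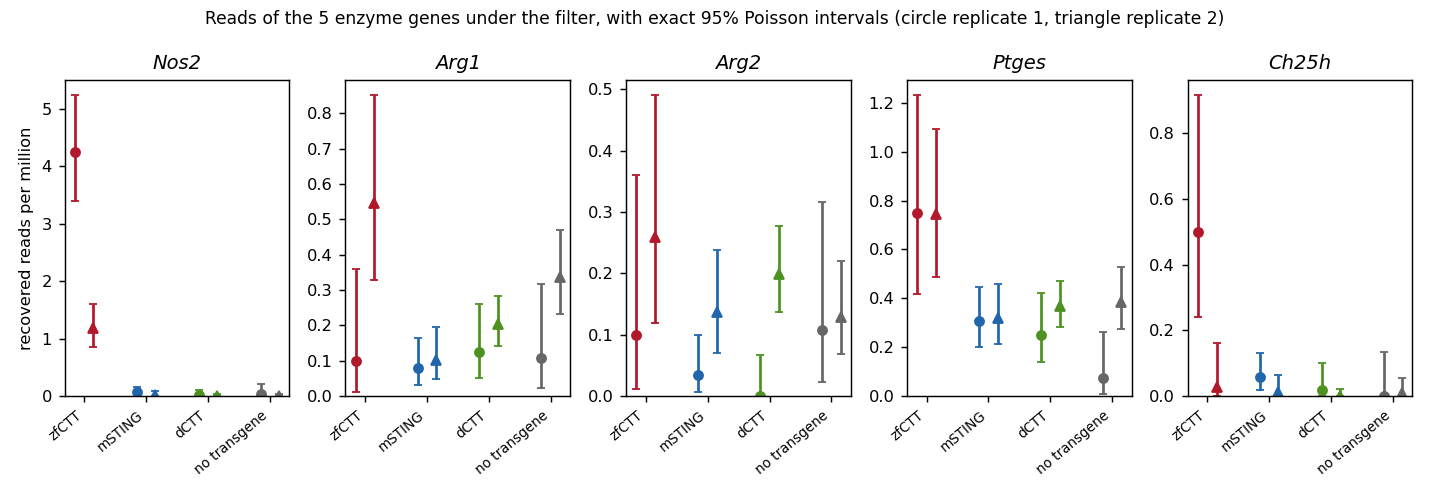
Recovered reads per M reads of depth for the 5 enzyme genes that stayed below the filter, 1 point per library (circle replicate 1, triangle replicate 2), with exact 95% Poisson intervals that cover counting error only. Nos2 stands clear of the other groups in both zfCTT libraries, on 85 and 41 reads, while Arg1 and Arg2 overlap between zfCTT and every other group.

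In the prostaglandin pair, Ptgs2 was highest in zfCTT and overlapped among the other groups. Its level was 1.74 and 1.44 RPKM in zfCTT (160 and 230 reads), 0.399 and 0.572 RPKM in mSTING (161 and 231 reads), 0.361 and 0.415 RPKM in dCTT (92 and 326 reads), and 0.693 and 0.406 RPKM without a transgene (88 and 188 reads). The 6 other libraries lay below those of zfCTT and overlapped between groups. The mSTING libraries overlapped those without a transgene, which those of Acod1, Ass1 and Gch1 did not. On the log2(RPKM + 1) scale zfCTT was higher by 0.75 than no transgene, by 0.80 than mSTING and by 0.90 than dCTT, and mSTING over no transgene was -0.06, each ± 0.18 (SE, n = 2 a group).

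Ptges, the next enzyme, lay at a lower level with the same split between zfCTT and the rest. It was at 0.190 and 0.190 RPKM in zfCTT (15 and 26 reads), 0.078 and 0.081 RPKM in mSTING (27 and 28 reads), 0.064 and 0.093 RPKM in dCTT (14 and 63 reads), and 0.018 and 0.098 RPKM without a transgene (2 and 39 reads). Again the 6 other libraries lay below both of zfCTT and overlapped. The pooled read rate in zfCTT was 2.40 times that in mSTING (95% interval 1.56 to 3.66), 2.205 times that in dCTT (1.47 to 3.26) and 2.35 times that without a transgene (1.49 to 3.72), for counting error only. Ptgs2 lies on the plus strand at chr1:150100031-150108227 and Ptges on the minus strand at chr2:30889471-30929863 of GRCm38.

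Ch25h was close to the limit of detection. It had 10 and 1 reads in zfCTT (0.369 and 0.021 RPKM), 5 and 1 reads in mSTING (0.042 and 0.008 RPKM), 1 and 0 reads in dCTT, and 0 and 1 reads without a transgene. The 10 reads of zfCTT replicate 1 make up most of its group, and replicate 2 of zfCTT lay between the mSTING libraries, so these groups overlapped. The pooled rate ratio of zfCTT to mSTING was 5.89 (95% interval 1.998 to 19.4) and that of zfCTT to no transgene 25.9 (3.76 to 1113), for counting error only. Ch25h is a single-exon gene on the minus strand at chr19:34473778-34475164 of GRCm38, and 159 of its bases are also exon of Gm26902 on the other strand, which makes its few reads uncertain.

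**Figure D3:**
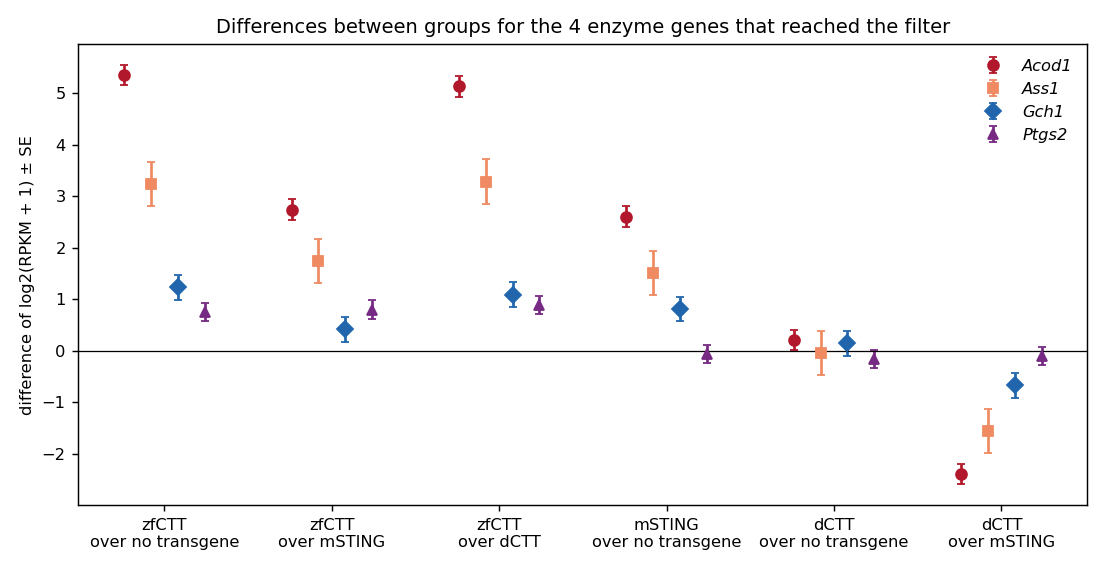
Difference of log2(RPKM + 1) between groups, as a point with its standard error from the limma fit, for the 4 enzyme genes at or above the filter in the 6 contrasts between groups. Acod1 spans 5.35 to -2.39. Ass1 follows it with smaller values and Gch1 is smaller again, except in dCTT over no transgene. There Acod1 was at 0.22, Ass1 at -0.04 and Gch1 at 0.14. Ptgs2 departs from 0 by more than its error only where zfCTT is compared.

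Set against all genes tested, the calls were few. At a limma adjusted p under 0.05 after Benjamini-Hochberg adjustment over 13475 genes, Acod1 and Ass1 were called higher in zfCTT than without a transgene, where 0.928% of genes were called higher. The same 2 were called higher in zfCTT than in dCTT, where 0.913% were, and Acod1 alone in zfCTT over mSTING, where 0.111% were. With the replicate numbers taken as a block, though no label ties them, Ass1 was called over mSTING too. Nothing is read from these counts, since the genes were listed with these contrasts known. Gch1 and Ptgs2 were not called in any contrast.

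The calls depended on the libraries. Without replicate 1 of no transgene and replicate 1 of dCTT together, a setting added after seeing the data that leaves 1 library in each of those groups, 0 of the 4 genes were called in zfCTT over no transgene, over dCTT or over mSTING. The Ass1 calls were lost without any single library of zfCTT, dCTT or no transgene, with Acod1 still called. The Acod1 call over mSTING was lost without any single library of zfCTT, mSTING or dCTT. Its log2 difference lay between 2.55 and 2.94 in these fits, against 2.74 with all libraries.

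In mSTING over no transgene, limma called 0 of the 4 genes and 0% of all genes, and 3 of the 4 (Acod1, Ass1 and Gch1) had an unadjusted p under 0.05, as had 467 of all 13475 genes. Nothing is read from this or the next counts over the 4. They were listed with these contrasts known, and Acod1 and Ptgs2 passed the filter only through groups where they are high. In dCTT over no transgene it called 0 of the 4 and 0% of all, with 0 of the 4 and 36 of all at an unadjusted p under 0.05. In dCTT over mSTING it called 0 of the 4 and 0% of all, with 3 of the 4 and 336 of all at an unadjusted p under 0.05, and the log2(RPKM + 1) differences were -2.39 for Acod1, -1.55 for Ass1, -0.67 for Gch1 and -0.10 for Ptgs2. The voom fit on recovered reads called 0 of the 4 genes in each of these 3 contrasts.

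Counted without any filter, 7 of the 9 genes had both zfCTT libraries above both without a transgene, all but Arg1 and Arg2 (Ch25h on 1 read in zfCTT replicate 2), and of all tested genes 18.8% had. The same 7 were above dCTT, against 20.1% of all tested genes. Over mSTING 5 of 9 were (Acod1, Ass1, Nos2, Ptgs2 and Ptges), against 24.9%. For mSTING over no transgene 4 of 9 were (Acod1, Ass1, Gch1 and Ch25h), against 15.3%, and for dCTT over no transgene 1 of 9, Acod1, against 7.75%. Ch25h in mSTING rested on 1 read in mSTING replicate 2 against 1 read in no transgene replicate 2, apart only by depth. For dCTT against mSTING 4 of 9 had both libraries below (Acod1, Ass1, Gch1 and Nos2), against 12.8%. Nos2 did so on 1 read in each dCTT library against 2 reads in mSTING replicate 2. Without replicate 1 of no transgene and of dCTT the counts were 7 (36.6% of tested genes), 7 (36.8%), 5 (24.9%), 5 (29.9%), 5 (47%) and 5 (25.4%) in the same order, a setting added after seeing the data in which a group of 1 library is more easily passed. All of these share groups and were known when the genes were listed, so they are no support for one another. The shares are over the 13475 genes that passed the filter, while 5 of the 9 did not. Counts and shares are therefore not over the same set.

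Across the 8 libraries, log2(RPKM + 1) of Acod1 had a Pearson correlation of 0.98 with Ass1, 0.93 with Gch1 and 0.85 with Ptgs2. Gch1 and Ptgs2 were the least alike of the 4, at 0.65. These are descriptions over 8 libraries that fall into 4 groups, and most of each value is the difference between groups. Outside the list, the 5 protein-coding genes closest to Acod1 by the same measure were Rnf114 at 0.993, Antxr1 at 0.991, Nfkbia at 0.988, Oasl1 at 0.988 and Trim25 at 0.987.

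Rnf114, a ubiquitin ligase, was at 44.7 and 39.0 RPKM in zfCTT, 23.8 and 22.7 in mSTING, 14.2 and 14.6 in dCTT, and 15.04 and 15.6 without a transgene. Nfkbia, which encodes IκBα, an inhibitor that holds NF-κB in the cytoplasm, was at 209 and 176 RPKM in zfCTT, 110 and 91.6 in mSTING, 58.9 and 64.9 in dCTT, and 46.7 and 53.4 without a transgene. Both had zfCTT above mSTING and mSTING above the remaining groups, as Acod1 did, but were well above 1 RPKM in those remaining groups too. Oasl1, an oligoadenylate synthetase-like interferon-stimulated gene, was at 152 and 56.4 RPKM in zfCTT, 20.4 and 7.19 in mSTING, 0 and 0.022 in dCTT, and 0.014 and 0.027 without a transgene.

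Trim25, a ubiquitin ligase that acts on the RNA sensor RIG-I, ranged from 29.8 to 37.2 RPKM in zfCTT and from 10.3 to 10.9 RPKM without a transgene. Antxr1, an anthrax toxin receptor, ranged from 1.26 to 1.56 RPKM in zfCTT and was at 0.216 and 0.217 RPKM without a transgene. Exons of Rnf114, Antxr1 and Oasl1 overlap those of Spata2, n-R5s164 and Gm13822 on the other strand, so their reads are uncertain to that extent.

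**Figure D4:**
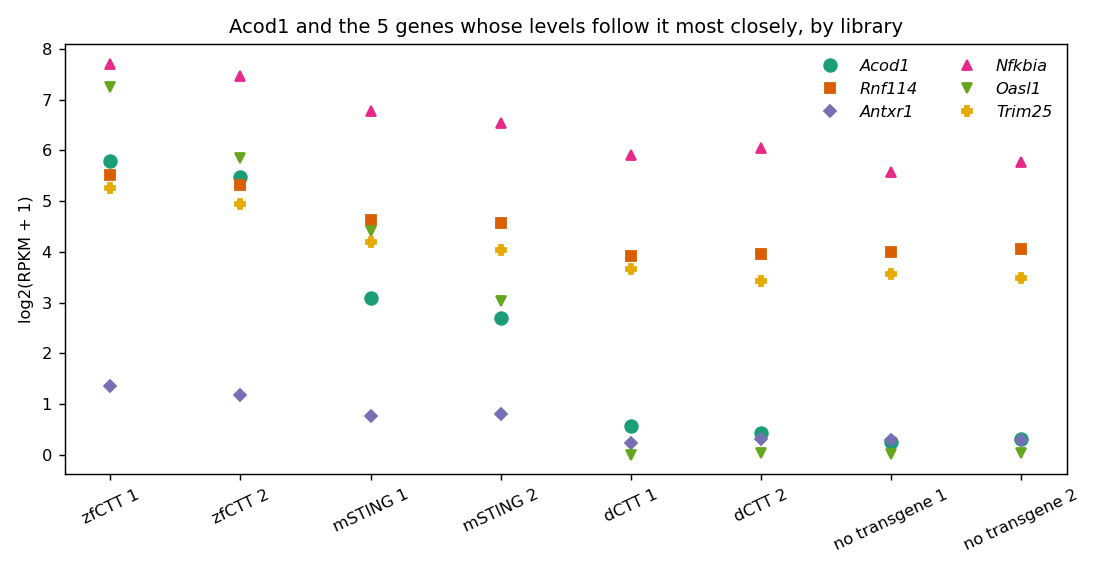
Level on the log2(RPKM + 1) scale in each library for Acod1 and the 5 protein-coding genes with the highest Pearson correlation with it over the 8 libraries. All 6 are highest in the 2 zfCTT libraries and next in the 2 mSTING libraries, with very different levels in the dCTT and no transgene libraries.

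The other genes of the same pathways gave no calls in the fit without a replicate block. A list of 71 such genes (citrate cycle, arginine, polyamine and proline metabolism, tetrahydrobiopterin, prostaglandin and leukotriene, oxysterol) had 53 above the filter. In zfCTT over no transgene, limma called 0 of the 53, against 1.08% of all genes in either direction, with 11 of the 53 and 1808 of all 13475 genes at an unadjusted p under 0.05. In zfCTT over mSTING it called 0, against 0.119%, with 13 of the 53 and 1476 of all genes at an unadjusted p under 0.05. In zfCTT over dCTT it called 0, against 1.08%, with 10 of the 53 and 1709 of all genes. In mSTING over no transgene, dCTT over no transgene and dCTT over mSTING it called 0 as well, with 6, 0 and 3 of the 53 at an unadjusted p under 0.05, against 467, 36 and 336 of all genes, and voom on recovered reads called 0 of them in all 6 contrasts. The median log2 difference of the 53 was -0.11 in zfCTT over no transgene, where it was -0.04 over all tested genes, and 0.04 in zfCTT over mSTING, where it was 0.01.

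Around Ass1, the next enzyme Asl differed by 0.21 ± 0.16 (log2 ± SE) between zfCTT and no transgene, with a limma adjusted p of 0.622. The arginine transporter Slc7a1, chosen after its values were seen, was at 26.7 and 16.3 RPKM in zfCTT against 13.9 and 14.7 RPKM without a transgene, a log2 difference of 0.51 ± 0.24 with a limma adjusted p of 0.418. It was at 13.55 and 14.3 RPKM in mSTING and 15.998 and 14.7 RPKM in dCTT, so both zfCTT libraries were above the other 6. A second arginine transporter, Slc7a2, differed by 0.12 ± 0.31 and Odc1, ornithine decarboxylase of polyamine synthesis, by 0.07 ± 0.23, with limma adjusted p values of 0.907 and 0.932. Pts, which follows Gch1 in tetrahydrobiopterin synthesis, differed by -0.12 ± 0.17, with a limma adjusted p of 0.811. In zfCTT over mSTING Asl, Slc7a2, Odc1 and Pts differed by 0.04, 0.34, -0.01 and 0.04, and none of the 4 had a limma adjusted p under 0.647. Exons of Slc7a2 share 635 bases with Gm26584 on the other strand, so its reads are uncertain to that extent.

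In the prostaglandin branch, the constitutive cyclooxygenase Ptgs1 was at 11.97 and 21.9 RPKM in zfCTT, 9.33 and 21.6 in mSTING, 28.8 and 31.8 in dCTT, and 35.3 and 33.5 without a transgene. Both zfCTT libraries were below both without a transgene and overlapped those of mSTING, and the log2 difference from no transgene of -1.04 ± 0.41 (SE) did not pass (limma adjusted p = 0.3499). Per length, Ptgs1 was thus above Ptgs2 in every library, including those of zfCTT. Exons of Ptgs1 share 148 bases with Gm43621 on the other strand, so its reads are uncertain to that extent. Pla2g4a, the phospholipase that releases arachidonic acid, differed by -0.01 ± 0.46 between zfCTT and no transgene (limma adjusted p = 0.994). Hpgd, which inactivates prostaglandins and was chosen after its values were seen, was at 33.0 and 31.5 RPKM in zfCTT against 92.9 and 60.1 RPKM without a transgene. Its log2 difference of -1.19 ± 0.26 (SE) had a limma adjusted p of 0.101. With the replicate numbers taken as a block, the setting with the most calls over all genes, Hpgd was called in this contrast.

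In the oxysterol branch, Gpr183, the receptor for an oxysterol made downstream of Ch25h, had the smallest adjusted p of the 53. It was at 0.726 and 2.001 RPKM in zfCTT, 3.14 and 5.13 in mSTING, 5.08 and 7.17 in dCTT, and 8.86 and 7.40 without a transgene. All other libraries lay above those of zfCTT. The log2 difference from no transgene was -2.0 ± 0.33 (SE), and the limma adjusted p of 0.0536 did not pass the threshold. With the replicate numbers taken as a block, the setting with the most calls over all genes, Gpr183 was called in this contrast. Over the other settings without a replicate block its adjusted p ranged from 0.0532 to 0.417, and in zfCTT over mSTING it was 0.385. Nr1h3, an oxysterol-activated nuclear receptor, stayed under the filter, at 0.278 and 0.171 RPKM in zfCTT against 0.129 and 0.193 RPKM without a transgene. Exons of Nr1h3 share 34 bases with Gm13783 on the same strand, so its reads are uncertain to that extent. Cyp7b1, which would act on the product of Ch25h, was at 0 RPKM in every library.

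**Figure D5:**
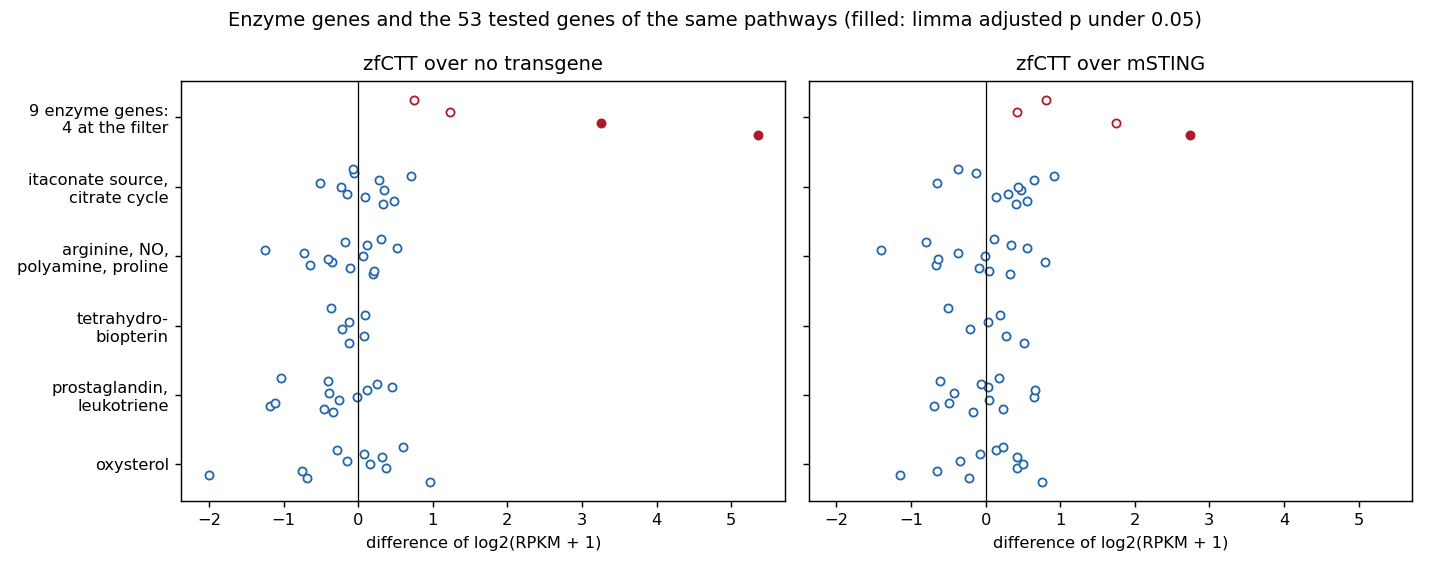
Difference of log2(RPKM + 1) for the 4 enzyme genes above the filter (red) and the 53 tested genes of the same pathways (blue), 1 point per gene, with zfCTT over no transgene on the left and zfCTT over mSTING on the right and filled points for a limma adjusted p under 0.05. In both panels the filled points are Acod1 and, on the left, Ass1, while the blue points are all open and lie on both sides of 0.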

How the data were processed

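The authors deposited 1 table of RPKM values, reads per kilobase scaled to library depth, for 53715 genes in 8 libraries. Tools and build, per the submitters' processing notes, include cutadapt 1.16, HISAT2 2.1.0 and GRCm38 (mm10), without their roles. Which program counted the reads, with which annotation and strand setting, is not given in the sources used here. Per the labels, 4 M cells were seeded per 10 cm dish, and RNA was extracted with phenol and chloroform and sequenced single-end. Groups were taken from the transgene label and replicate numbers from the titles. Symbols were found for 53620 identifiers. Gene positions and exon lengths come from GENCODE release M21 of GRCm38 and upstream sequences from RefSeq on GRCm38.p6.

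The 9 genes, the gene lists and the tests were chosen with earlier results of these data known. Tests used limma 3.58.1 in R 4.3.3 with an intensity trend on log2(RPKM + 1), for genes with at least 1 RPKM in at least 2 of 8 libraries, in 1 fit of 4 group means (4 residual degrees of freedom, 6 contrasts, two-sided). Adjustment followed Benjamini-Hochberg at 0.05 over 13475 genes. The fit was tested on simulated data. Multiplied by exon length, RPKM values fell within 0.05 of a whole read for 95.0% to 95.6% of nonzero values. Reads for the low genes and for a voom fit, scaled to total reads, were taken from this, and counting intervals are exact, at 95%. The count of Ch25h reads is approximate, since its values are not whole multiples of a read at the annotated length.

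Other settings were pseudocounts of 0.1 and 0.5, no filter, a mean of at least 5 RPKM, median-ratio scaling, voom, replicate numbers as a block, only the 2 groups compared, and each library left out. Beyond the 9 genes, those named were 8 genes of the same pathways chosen by role (1 more is not reported here) and the 5 protein-coding genes with the highest Pearson correlation with Acod1. Of the pathway genes, those past the threshold would also have been named, and there were 0. Hpgd, Slc7a1 and Cyp7b1 were named after their values were seen.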

Additional observations from a re-analysis of the deposited data

How the results depend on the processing

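Of the 4 enzyme genes, the number called in zfCTT over no transgene was 2 (Acod1 and Ass1) as reported, 1 (Acod1) with no filter and with only the 2 groups compared, and 1 to 2 with single libraries left out. In zfCTT over dCTT it was 2, then 1 under the same settings, and 1 to 2 with single libraries left out. In zfCTT over mSTING it was 1 (Acod1), 0 with a pseudocount of 0.1 and with only the 2 groups compared, and 0 to 1 with single libraries left out. Without no transgene replicate 1 and dCTT replicate 1 together it was 0 in all 3, and the genes at an unadjusted p under 0.05 numbered 1155, 1136 and 1264 of 13007 (7 of 51 pathway genes in each). In mSTING over no transgene it was 0, against 1 (Acod1) with pseudocounts of 0.1 and 0.5 and 0 to 1 with single libraries left out. In dCTT over mSTING it was 0, against 1 (Acod1) with a pseudocount of 0.1. How many of all genes were called in these 2 contrasts under those settings is not given here. Nothing is read from the Acod1 calls there, since Acod1 passed the filter only through groups where it is high. The cause of these changes between settings was not tested. A group left with 1 library is assumed to vary like the others.

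With the replicate numbers as a block, 2 enzyme genes (Acod1 and Ass1) were called in zfCTT over mSTING. The block called 2 pathway genes (Hpgd and Gpr183) in zfCTT over no transgene and 1 (Gpr183) in zfCTT over dCTT, against 0 without it. Calls over all genes were also highest with the block, as given below, so nothing is read from these calls. Deviations of same-numbered libraries correlated at 0.43 between zfCTT and no transgene, 0.40 between zfCTT and dCTT, and 0.26 between zfCTT and mSTING. The value was 0.76 between dCTT and no transgene, 0.03 between mSTING and dCTT, and 0.04 between mSTING and no transgene. No label ties the replicate numbers, so whether they pair the libraries is not known.

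No log2 difference of the 4 enzyme genes changed sign where it was called. Among the pathway genes named, those that changed sign were not called. With single libraries left out, the log2 difference in zfCTT over no transgene ranged from -0.22 to 0.46 for Slc7a2, -0.064 to 0.20 for Odc1 and -0.63 to 0.60 for Pla2g4a, which was 0.043 and 0.0059 with pseudocounts of 0.1 and 0.5 and 0.33 with voom. In zfCTT over mSTING it ranged from -0.0066 to 0.094 for Asl, -0.16 to 0.14 for Odc1 (0.0095 with voom) and -0.39 to 0.74 for Ptgs1. Over all genes, limma called 146 in zfCTT over no transgene (0 to 432 over the other settings), 146 in zfCTT over dCTT (0 to 409) and 16 in zfCTT over mSTING (0 to 44), highest with the block. Depth limits Nos2, Arg1, Arg2, Ptges and Ch25h, with 11 to 126 reads in zfCTT.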

Other observations

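Beyond the genes described above, 2 genes of the arginine and polyamine branch were picked after their values were seen. Ddah1, which breaks down methylated arginines that inhibit nitric oxide synthases, stayed under the filter at 1.35 and 0.476 RPKM in zfCTT (108 and 66 reads), 0.188 and 0.111 RPKM in mSTING, 0.099 and 0.105 RPKM in dCTT, and 0.145 and 0.084 RPKM without a transgene. Both zfCTT libraries were above all 6 others. Its pooled read rate in zfCTT was 5.33 times that in mSTING (95% interval 4.16 to 6.85) and 8.18 times that without a transgene (5.94 to 11.4), for counting error only. Sat1, the acetyltransferase that begins polyamine breakdown, was at 10.4 and 15.7 RPKM in zfCTT, 37.2 and 34.0 RPKM in mSTING, 23.0 and 25.7 RPKM in dCTT, and 37.5 and 26.8 RPKM without a transgene. Both zfCTT libraries were below all 6 others, and the log2(RPKM + 1) differences of -1.40 ± 0.25 from mSTING and -1.25 ± 0.25 from no transgene (SE) did not pass, with limma adjusted p values of 0.173 and 0.0840.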
